A study of Rattus norvegicus with 6 samples.

Results

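Distal CpG-poor tiles of low methylation are stretches of 1000 nucleotides of the rat autosomes in which few CpGs occur and fewer than usual are methylated, away from CpG-dense sequence. A tile was taken when it held 5 to 19 distinct CpGs, had a methylation level between 10 and 50% over the reads of all 6 samples, had at least 50 reads in each sample, and had no tile of 30 or more CpGs within 3 tiles on either side. A read counts here once at each CpG it covers. The rule took 68922 of the 1359223 autosomal tiles with enough reads, which is 5.07%, and 6.29% of the 1095409 distal CpG-poor tiles. The level over all samples therefore chose these tiles, and it is given as a description only.

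Whole-genome bisulfite sequencing (WGBS) reads a methylated cytosine as cytosine and an unmethylated one as thymine. It was performed on hippocampi of CD1 Sprague-Dawley rat pups at postnatal day 15, with 3 pups from dams fed an iron-deficient diet and 3 from dams fed an iron-sufficient diet. Dams of the iron-deficient pups ate food with 4 ppm iron between gestational day 2 and postnatal day 7 and were then moved to the control food with 200 ppm, which dams of the iron-sufficient pups ate throughout. The question of the study was whether iron deficiency before and shortly after birth changes DNA methylation in the hippocampus, and neither the litter nor the sex of a pup is given in the sources used here, so p-values measure the spread between these samples.

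Most CpGs of a mammalian genome are methylated, and CpG islands, which often hold promoters, are the main exception. Away from islands, lower methylation often accompanies bound transcription factors, as at enhancers, which raise the transcription of genes that may lie far away. DNA methyltransferases add the mark and TET enzymes, which depend on iron, oxidise it to hydroxymethylcytosine, a base that is plentiful in brain and that bisulfite does not separate from methylcytosine. Whether the tiles are enhancers was not checked, because no chromatin mark and no gene annotation of build rn4 was used, and distal means only far from CpG-dense tiles. The hippocampus holds neurons and glia, and a tile at an intermediate level may differ between cells of different types or within them, which cannot be told apart in bulk tissue.

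The files listed between 16699344 and 21093430 CpGs per sample, with a median coverage per CpG between 17 and 33 reads. A chosen tile had a median of 11 CpGs (quartiles 8 and 15) and 1843 reads over the 6 samples (quartiles 1264 and 2574). The median number of reads per CpG and sample was 28.0, compared with 26.1 in the 1025566 distal CpG-poor tiles above 50%, the comparison tiles used throughout. The low tiles thus rested on slightly more reads per CpG than these comparison tiles.

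The levels crowded towards the upper bound of the rule. The median was 39.8% (quartiles 31.4 and 45.6%), with 34090 tiles between 40 and 50%, 19742 between 30 and 40%, 10859 between 20 and 30% and 4231 between 10 and 20%. Only 921 distal CpG-poor tiles with enough reads were below 10%. The tiles formed the lower flank of the distribution, without a peak of their own, while the tiles above 50% had a median of 82.5%. At the lower bound, the nearest tiles inside were at 10 and 10.0065% and the nearest outside at 9.996 and 9.993%. At the upper bound, the nearest inside were at 50% and the nearest outside at 50.01%, so the bounds divide tiles that hardly differ.

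**Figure D1:**
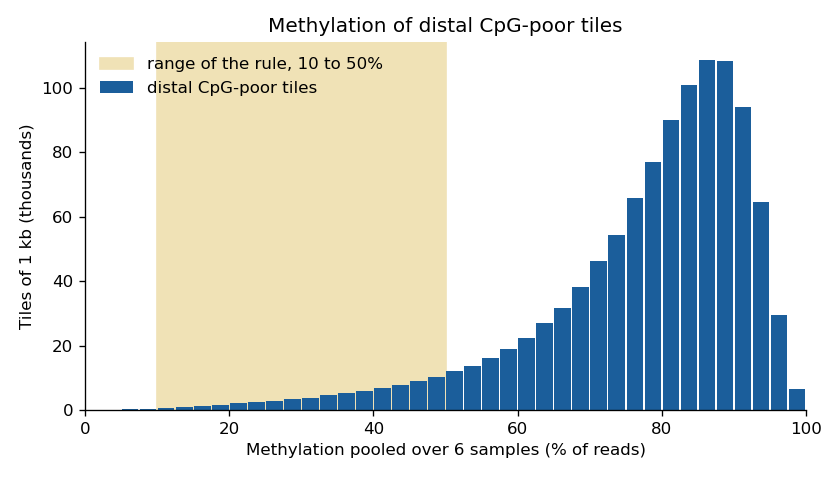
Number of distal CpG-poor tiles (vertical axis, in units of 1000) by methylation over the reads of 6 samples (horizontal axis, %, bins of 2.5 percentage points). The shaded band is the range of the rule, and the 68922 tiles in it lie on the lower slope of a single peak.

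Tiles with more CpGs were more often low. The rule took 4.85% of the distal CpG-poor tiles with 5 to 9 CpGs, 6.66% of those with 10 to 14 and 9.40% of those with 15 to 19, and the median level fell from 41.2 to 39.7 and 38.0% in the same order. By chromosome, the share ran from 5.55% on chromosome 13 to 7.43% on chromosome 10, with median levels between 39.0 and 40.2%. The nearest CpG-dense tile was at a median of 37 kb, compared with 44 kb for the tiles above 50%, and it lay within 10 kb of 18.4% of the low tiles and of 15.4% of the others. Low tiles were thus somewhat nearer to CpG-dense sequence, with 57.8% of them within 50 kb compared with 53.7%.

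Since the level chose the tiles, it was measured again in pups that had no part in the choice. The same rule applied to the 3 iron-sufficient pups took 76577 tiles with a mean of 37.5%. In the iron-deficient pups the same tiles had means of 43.0, 44.4 and 44.8%, compared with 80.6% over the distal CpG-poor tiles above 50% in the iron-sufficient pups. In these pups 64.0% of the chosen tiles were again between 10 and 50% and 35.1% were above 50%, whereas 2.32% of the other tiles were between 10 and 50%. Low methylation was therefore seen again in most of the tiles, at a somewhat higher level than in the pups that chose them.

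The reverse choice gave the same picture. On the iron-deficient pups, 73421 tiles with a mean of 37.4% were chosen, and the iron-sufficient pups had means of 41.8, 43.7 and 43.0% there. Of these tiles, 66.8% were again between 10 and 50%. When 5 pups chose and a single pup was measured, the mean of the chosen tiles in that pup was between 39.8 and 42.6%.

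The low level was narrow in space. The mean level was 37.7% in the chosen tiles, 67.5% in the adjoining tiles on each side, and 74.3 and 74.4% in the tiles 2 kb away, and it stayed between 73.9 and 74.8% from there to 10 kb. CpG-poor tiles of 10 to 50% within 3 kb of a CpG-dense tile, of which there were 15047, rose slowly instead, from 32.8% to 46.2 and 46.0% at 1 kb, 51.9 and 51.8% at 2 kb and 67.7 and 67.8% at 5 kb. In the tiles chosen on the iron-sufficient pups and measured in the iron-deficient ones, the mean rose from 43.9% to 68.6 and 68.7% at 1 kb and 74.9 and 75.01% at 2 kb. The dip was thus also present in pups that did not choose the tiles. At a wider scale, the distal CpG-poor tiles of the same 100 kb were averaged with all low tiles left out. Their mean had a median of 79.5% around the low tiles and 80.4% around the tiles above 50%. Leaving out the low tiles raises both values, so they do not give the level of the whole 100 kb.

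**Figure D2:**
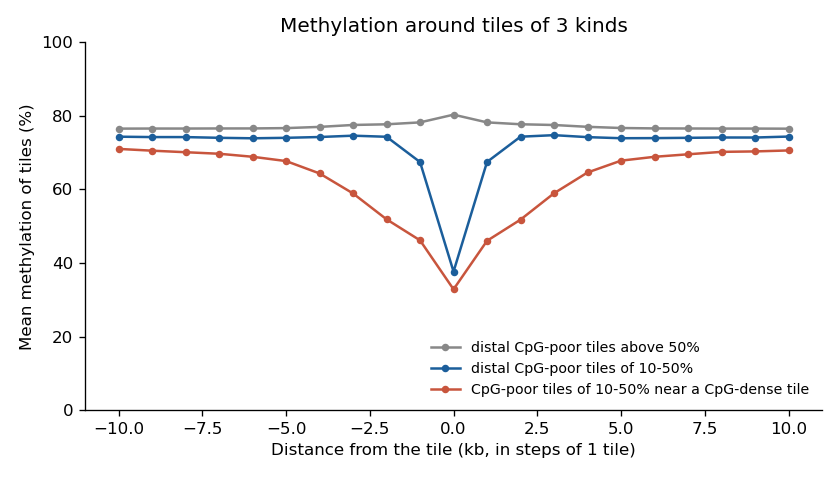
Mean methylation of tiles (vertical axis, %) by distance from the tile (horizontal axis, kb) for the 68922 distal tiles of 10 to 50%, the 1025566 distal tiles above 50% and the 15047 tiles of 10 to 50% near a CpG-dense tile. The distal low tiles return to 74.3% within 2 kb. The tiles near CpG-dense sequence, whose flanks hold CpG-dense tiles by the rule, are at 51.9% there.

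Single CpGs placed the dip more finely. In each tile chosen on the iron-sufficient pups, the CpG lowest in those pups was taken as the centre, and the level was read in the iron-deficient pups. The mean was 24.9% at the centre, 33.2% at CpGs up to 50 nucleotides away, 45.8% between 200 and 300, 55.9% between 400 and 500, 67.9% between 750 and 1000 and 74.2% between 2000 and 3000. Mean methylation rose steadily with distance. Farther CpGs lie more often outside the chosen tile, so the profile does not measure a gradient within it. In tiles above 50% the CpG chosen in the same way was at 64.8%, and its neighbours up to 50 nucleotides away were already at 79.3%. Choosing tiles by their level by itself makes neighbours lower in the low tiles. This contrast therefore does not show how far a low CpG extends. With the choice on iron-deficient pups, the low tiles gave 24.1% at the centre and 32.1% up to 50 nucleotides away.

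**Figure D3:**
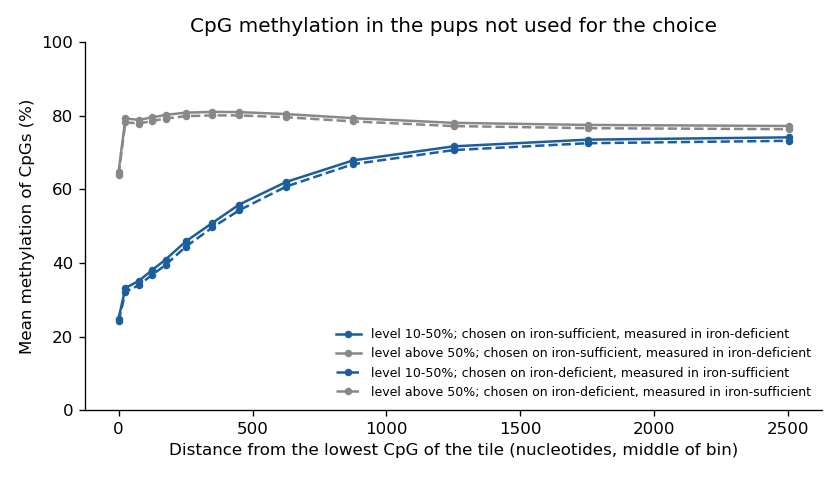
Mean methylation of CpGs (vertical axis, %) by distance from the lowest CpG of the tile (horizontal axis, nucleotides), in the 3 pups that did not choose the tiles. Solid lines are choices on iron-sufficient pups and dashed lines choices on iron-deficient pups, and in both the low tiles (blue) climb gradually while the tiles above 50% (grey) are at 79.3 and 78.3% from the first neighbours on.

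Within a tile, low and high CpGs were mixed. Of 712878 CpGs with at least 60 reads over the 6 samples, 29.5% were under 20%, 27.4% between 20 and 40%, 19.04% between 40 and 60%, 12.8% between 60 and 80% and 11.3% above 80%. In the tiles above 50%, 2.13% of CpGs were under 20% and 63.4% above 80%. Of the 65915 low tiles with at least 5 such CpGs, 57.1% held both a CpG under 20% and one above 80%, and 33.7% held low ones without high ones. The median tile had 3 CpGs under 20% and 1 above 80%. A tile level near 40% was therefore mostly an average over unequal CpGs.

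Most low tiles stood alone. An adjoining tile was also low for 23.7% of them, compared with 7.01% of the tiles above 50%. They formed 60147 runs, of which 52574 were single tiles, 6610 were pairs, 784 were runs of 3 and 179 were runs of 4 or more. In windows of 100 kb with at least 50 distal CpG-poor tiles, of which there were 10610, low tiles made up a median of 6% (quartiles 3.57 and 9.38%), with 21.7% at the 99th percentile and 70.7% at most, and 524 windows had none.

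The densest window, chosen after its values were seen, was chr18:66200001-66300000, where 41 of 58 distal CpG-poor tiles were low. Over these 58 tiles the mean was 37.5, 36.3 and 37.1% in the iron-sufficient pups and 40.9, 41.7 and 39.3% in the iron-deficient pups. Every pup was thus low there, and the iron-deficient pups were all above the others (36.9% ± 0.615 and 40.6% ± 1.23, SD, n = 3; exact permutation test, two-sided, p = 0.1, the smallest that 3 against 3 can give). The adjoining windows also had many low tiles, 35.5% and 30.1%, and the window holds 5 CpG-dense tiles. In the next richest, chr11:58700001-58800000, with 40 of 76 tiles, the pups overlapped between groups (46.8% ± 4.55 and 50.9% ± 4.31, SD, n = 3; exact permutation test, p = 0.2). In chr5:101300001-101400000, with 36 of 74 tiles, the iron-deficient mean was the lower one (51.8% ± 2.04 and 48.8% ± 1.45, SD, n = 3; exact permutation test, p = 0.2).

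The level of single tiles differed widely between pups. The median SD over the 6 samples was 13.6 percentage points, compared with 9.85 in the tiles above 50% and 12.1 in the tiles of 10 to 50% near a CpG-dense tile. Counting error, if every read at every CpG were an independent molecule, would give 2.81 in the low tiles and 2.44 in those above 50%, which is a lower limit, since neighbouring CpGs share reads and the number of separate DNA molecules behind the reads was not measured. The median range from the lowest to the highest pup was 36.0 percentage points (quartiles 26.8 and 47.3), and it was under 10 percentage points in 410 low tiles, or 0.595%, compared with 4.57% of the tiles above 50% and 1.16% of those near a CpG-dense tile, whose median range was 32.2 percentage points. Only 19556 tiles, or 28.4%, were at 50% or less in every pup. Of the others, 18114 were above 50% in 1 pup, 17239 in 2 and 11026 in 3. For most of the tiles, low methylation over all reads was therefore not low methylation in every sample.

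The range was narrower where more reads lay. Its median was 48.9 percentage points in tiles with up to 1000 reads, 38.8 between 1000 and 2000, 32.3 between 2000 and 3000 and 27.9 between 3000 and 5000. In the 93 tiles with over 8500 reads, 5 times the median of all tested tiles, it was 12.2. A low tile with many reads was more even between pups.

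The pups differed in how far they lay from the rest. The median distance of a pup from the mean of the other 5 was 8.19, 13.8 and 10.9 percentage points for iron-sufficient pups 1, 2 and 3, and 9.81, 12.6 and 9.21 for iron-deficient pups 1, 2 and 3. In the same order, the share of CpGs in the low tiles, among those covered by 20 or more reads, that were read as wholly methylated or wholly unmethylated was 20.3, 56.0 and 40.3% and 32.9, 47.9 and 22.2%. Pups with more all-or-none CpGs lay farther from the others and listed fewer CpGs, in the same order over all 6 pups, and both diets had pups at either end. The diversity of molecules in the libraries was not measured, and the part of these differences in the spread between pups was not tested.

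Correlation between pups was low within the low tiles. The rule holds their level over these same pups within 10 to 50%, which by itself lowers a correlation, so the values do not measure agreement alone. Across tiles, which are not independent replicates, Pearson's r between pups of the same diet was between 0.116 and 0.319, with a median of 0.201 over 6 pairs, and between pups of different diets it was between 0.0551 and 0.419, with a median of 0.195 over 9 pairs. In the tiles above 50% these medians were 0.395 and 0.413, and in the tiles near a CpG-dense tile, held to the same band of levels, 0.344 and 0.375. Within that band the latter spread more widely, with quartiles of 23.4 and 43.0%, compared with 31.4 and 45.6% in the low tiles. Pups of the same diet were thus no more alike than pups of different diets by this description.

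The mean level of the low tiles was close in the 2 diets. It was 38.1, 37.9 and 37.7% in the iron-sufficient pups and 37.6, 36.9 and 40.7% in the iron-deficient pups. The iron-deficient pups spread on both sides of the others, with pup 3, the sample of lowest coverage, highest. The group means were 37.9% ± 0.159 and 38.4% ± 2.02 (SD, n = 3), a difference of 0.518 percentage points, which became -0.627 without iron-deficient pup 3. The tiles above 50% had 79.7% ± 0.485 and 80.7% ± 0.359, a difference of 0.942. Tile by tile, the median difference was 0.629 percentage points (quartiles -7.53 and 8.59) and 52.1% of tiles were higher in the iron-deficient group, beside 0.782 and 54.0% over all tested tiles.

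**Figure D4:**
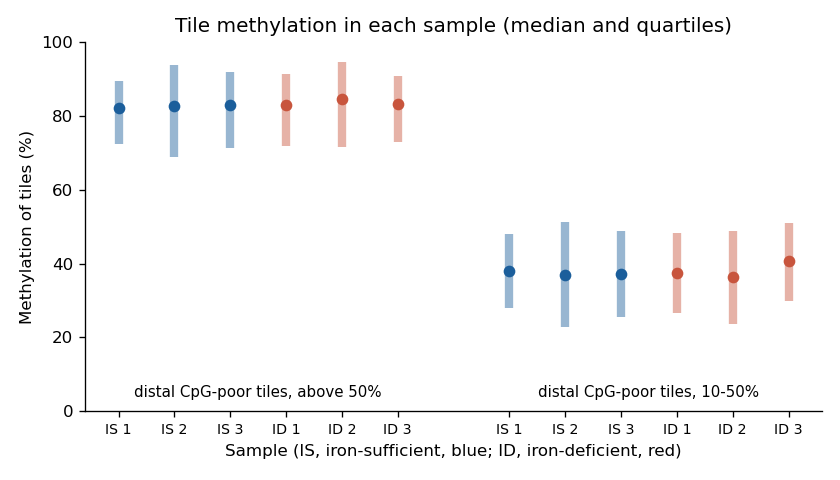
Median (points) and quartiles (bars) of tile methylation (vertical axis, %) in each of 6 pups (horizontal axis; IS, iron-sufficient, ID, iron-deficient) for distal CpG-poor tiles above 50% and of 10 to 50%. The medians of the low tiles lie between 36.4 and 40.7% in all pups, and the bars of the 2 diets overlap.

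No low tile passed the test between diets. edgeR's quasi-likelihood test called 0 of the low tiles at an adjusted p of at most 0.05, with a background of 0% over all 1359223 tested tiles, and limma called 0 as well. At an unadjusted edgeR p under 0.05 there were 1171 low tiles, or 1.70%, below the background of 2.78% of all tested tiles. Of these, 706 were higher in the iron-deficient group (1.02%, background 1.77%) and 465 lower (0.675%, background 1.01%). The limma count was 1680, or 2.44%, beside 4.16%.

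The groups did not overlap in 7028 low tiles, or 10.2%, next to a background of 9.95%. The iron-deficient pups were all higher in 3922 of them (5.69%, background 5.9%) and all lower in 3106 (4.51%, background 4.06%). These shares were close to the background in both directions. Separation of the 3 pups of one diet from the 3 of the other was thus about as frequent in low tiles as elsewhere. Separated groups of 3 pups have p = 0.1 in an exact permutation test, the smallest possible. The background is therefore not itself a rate of diet differences.

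Among separated tiles with at least 100 reads in every pup, the 4 largest increases and 4 largest decreases in read-weighted methylation were named. Being picked for their size, their differences are a description. None passed the adjusted test in edgeR (adjusted p = 1 for each), and 3 pups against 3 cannot go below p = 0.1 in an exact permutation test.

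Increase 1, chr17:59563001-59564000, with 17 CpGs, was at 51.9, 23.0 and 22.6% in the iron-sufficient pups and 84.2, 94.9 and 75.8% in the iron-deficient pups. The highest iron-sufficient pup lay well below the lowest iron-deficient one (32.5% ± 16.8 and 84.9% ± 9.57, SD, n = 3). The groups also read different CpGs of it, since 75.5% of iron-sufficient reads and 30.1% of iron-deficient reads fell on CpGs below the level of the tile. Of its 5 CpGs with at least 30 reads in each group, 4 were higher in the iron-deficient group and 1 was lower. No CpG of it was covered by 5 or more reads in every pup.

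Increase 2, chr18:77607001-77608000, with 7 CpGs, was at 21.6, 0 and 24.2% in the iron-sufficient pups and 80.1, 67.8 and 75.7% in the iron-deficient pups. The pup at 0 had 111 reads, which allows a share of up to 2.70% if each read at each CpG were independent. The groups were far apart (15.3% ± 13.3 and 74.5% ± 6.23, SD, n = 3), and all 6 CpGs with at least 30 reads in each group were higher in the iron-deficient pups. When each of the 4 CpGs covered by 5 or more reads in every pup counted equally, the difference was 69.2 percentage points instead of 59.3. The single CpGs moved with the tile here.

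Increase 3, chr9:56735001-56736000, was at 22.2, 19.4 and 35.2% and at 75.5, 91.3 and 55.3% in the iron-sufficient and iron-deficient pups. Increase 4, chr3:37244001-37245000, was at 15.9, 23.3 and 20.6% and at 81.5, 87.9 and 47.2%. CpGs below the level of increase 3 held 70.9% of the iron-sufficient and 35.6% of the iron-deficient reads. In increase 4 these shares were 51.6 and 48.2%. The low CpGs of increase 3 were at 16.1 and 77.4% in these reads, and its other CpGs at 47.6 and 77.5%. All 4 CpGs with at least 30 reads in each group were higher in the iron-deficient group in each region. In both, iron-deficient pup 3 lay between the others of its diet and the iron-sufficient pups. With CpGs counted equally, the groups remained apart in increase 3 and overlapped in increase 4, where this pup was at 25.5% but the difference was 52.4 percentage points, beside 52.2 with summed reads.

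Decrease 1, chr4:55494001-55495000, with 7 CpGs, was at 62.5, 60.2 and 89.5% in the iron-sufficient pups and 9.69, 31.7 and 20.1% in the iron-deficient pups. The groups were apart (70.7% ± 16.3 and 20.5% ± 10.995, SD, n = 3) and all 6 CpGs with at least 30 reads in each group were lower in the iron-deficient pups. With 3 CpGs counted equally the difference went from -50.2 to -32.4 percentage points and the groups overlapped, and with CpGs covered by 10 or more reads in every pup it was -24.4. Decrease 2, chr3:68499001-68500000, was at 66.9, 75 and 73.0% and at 53.6, 1.76 and 34.1%, so that the iron-deficient pups ranged widely, and without iron-deficient pup 2 the difference went from -41.8 to -27.8 percentage points. CpGs below the level of the tile held 58.6% of the iron-sufficient and 80.3% of the iron-deficient reads in decrease 1. In decrease 2 these shares were 37.4 and 61.4%. Of 7 CpGs of decrease 2 with at least 30 reads in each group, 6 were lower in the iron-deficient group and 1 was higher. With 4 CpGs counted equally its difference was -52.1 percentage points and the groups stayed apart.

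Decrease 3, chr15:83187001-83188000, was read mostly at different CpGs in the 2 groups. It was at 66.7, 67.9 and 81.0% in the iron-sufficient pups and at 34.1, 16.4 and 36.6% in the iron-deficient pups, which do not overlap. Its 9 CpGs below the level of the tile, from position 83187770 to 83187923, were at 11.2% in the iron-sufficient and 16.0% in the iron-deficient reads, but held 29.98% of the iron-sufficient and 80.5% of the iron-deficient reads. The 5 CpGs from 83187045 to 83187503 were at 96.7 and 62.2%, and the CpG at 83187091 differed by far the most, 90.1 against 5.48%. All 4 CpGs of the tile with at least 30 reads in each group were lower in the iron-deficient group. With its 3 CpGs that 5 or more reads covered in every pup counted equally, the groups overlapped, at 36.5% ± 5.45 and 38.7% ± 10.2 (SD, n = 3), and the difference was 2.26 percentage points instead of -42.8.

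Decrease 4, chr15:87777001-87778000, was similar in this respect. It was at 44.4, 71.2 and 56.5% in the iron-sufficient pups and 18.9, 0 and 24.3% in the iron-deficient pups. The pup at 0 had 179 reads, which allows up to 1.68% if each read at each CpG were independent. CpGs below its level held 31.3% of the iron-sufficient and 70.5% of the iron-deficient reads, and of 7 CpGs with at least 30 reads in each group 3 were higher, 3 lower and 1 equal in the iron-deficient pups. The CpGs above its level were together also lower, at 80.1% in the iron-sufficient and 24.3% in the iron-deficient reads. Among them the CpG at 87777506 was higher, at 63.2 and 81.25%. Those at 87777190 and 87777198 held 159 iron-sufficient reads each, but 34 and 27 iron-deficient reads.

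Counting CpGs equally left the share of separated tiles close to the background. This could be done in 73.6% of the low tiles, and the edgeR and limma tests were not repeated with it. In the 50721 tiles with at least 3 CpGs covered by 5 or more reads in every pup, the groups were apart in 2857 upwards (5.63%) and 2160 downwards (4.26%), beside 5.52 and 4.15% over all tested tiles treated alike. The median SD between pups was 13.4 percentage points, compared with 12.6 for the same tiles with summed reads. Some of these CpGs had few reads, so the SDs are given side by side only.

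**Figure D5:**
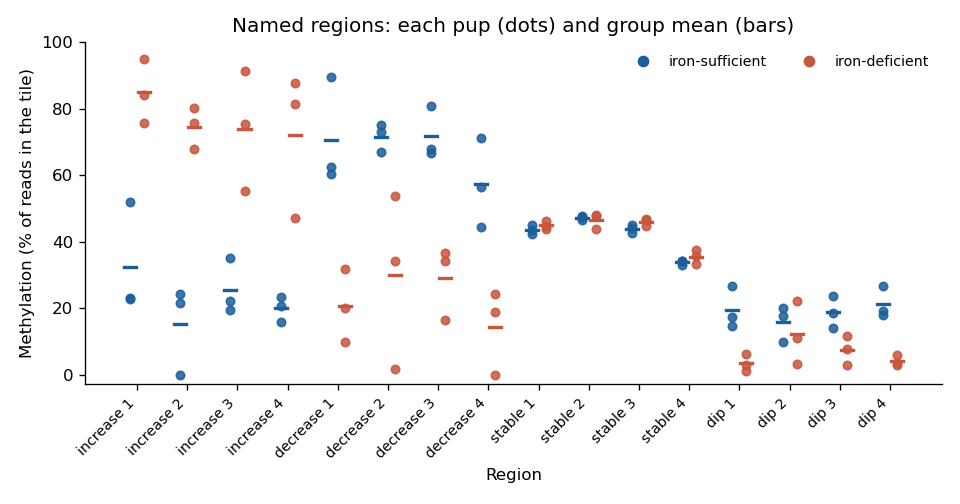
Methylation (vertical axis, % of reads in the tile) of 16 regions in each pup (dots) with the group means (horizontal bars), iron-sufficient in blue and iron-deficient in red. Regions called increase and decrease were picked for separated groups, those called stable for a small range over the 6 pups, and those called dip for the gap to the tiles 2 and 3 kb away.

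The deepest dips were found by the gap between a tile and the tiles 2 and 3 kb away on both sides, among tiles with at least 100 reads in every pup. Dip 1, chr15:89455001-89456000, was at 11.6% within surroundings at 91.9%, dip 2, chr5:16713001-16714000, at 13.9% within 92.7%, dip 3, chr14:23908001-23909000, at 12.2% within 90.7% and dip 4, chr3:55590001-55591000, at 11.04% within 89.4%. Every pup was at 26.5% or less in each of them, so these were low in all samples. In dip 1 the CpGs ran from 0.424 to 26.6%.

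The dips were not chosen on the diets, and 3 of the 4 were lower in every iron-deficient pup, which is a description of 4 regions beside the background of 4.06% of all tested tiles. Dip 1 was at 14.5, 26.5 and 17.3% in the iron-sufficient pups and 1.16, 2.92 and 6.25% in the iron-deficient pups, and dip 4 was at 18.99, 26.5 and 17.99% and at 3.57, 2.84 and 5.91%. In both, every iron-sufficient pup lay clearly above every iron-deficient one, although of the 8 CpGs of dip 4 only 4 were lower in the iron-deficient group, with 3 higher and 1 equal. The means were 19.5% ± 6.27 and 3.44% ± 2.59 in dip 1 and 21.2% ± 4.65 and 4.11% ± 1.61 in dip 4 (SD, n = 3; exact permutation test p = 0.1 for each, edgeR adjusted p = 1).

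In dip 1 the difference lay in the pair of CpGs at 89455276 and 89455302, at 63.0 and 48.8% in the iron-sufficient reads and 1.18 and 7.85% in the iron-deficient reads, while the other 4 were at 4.29 and 1.10% together. The groups stayed apart with CpGs counted equally, with differences of -17.8 percentage points in dip 1 and -16.1 in dip 4. With CpGs covered by 10 or more reads in every pup, the differences were -16.0 and -8.36, so that of dip 4 was smaller, and in dip 2 it was -14.7 instead of -3.66. Dip 3 was at 13.9, 23.6 and 18.6% and at 11.7, 2.83 and 7.69%, also apart, and dip 2 overlapped, at 17.5, 20.1 and 9.74% and at 11.1, 3.16 and 22.1%. In dip 3, CpGs below the level of the tile held 68.5% of iron-sufficient and 90.5% of iron-deficient reads, with like levels of 2.38 and 3.07% on them. Its CpGs above that level were at 54.9 and 53.5% together, but the groups also read these CpGs unequally. Those at 23908025, 23908464 and 23908531 were lower in the iron-deficient reads, some on few reads, and that at 23908963 was at 100% in both. Of 7 CpGs with at least 30 reads in each group, 3 were higher, 2 lower and 2 equal in the iron-deficient group. The largest difference among these 7 was downward, 75.6 against 49.0% at 23908464.

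Regions with the smallest range were picked among tiles with at least 200 reads in every pup, so their evenness is a description. Stable 1, chr1:183792001-183793000, was at 43.4, 45.1 and 42.4% in the iron-sufficient pups and 43.7, 44.6 and 46.3% in the iron-deficient pups. Stable 3, chr1:155724001-155725000, was at 44.3, 42.5 and 45.01% and at 44.8, 46.9 and 46.5%. The even level covered CpGs of opposite kinds, since the CpG at 155724084 was at 1.03% and its neighbour at 155724096 at 86.8%, and the CpGs at 155724416 and 155724447 were at 1.36 and 98.9%.

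Stable 2, chr16:27554001-27555000, had 71223 reads and stayed between 44.0 and 48.0% in all pups. Stable 4, chr1:23167001-23168000, lay between 32.9 and 37.3% by its summed reads, but with 7 CpGs counted equally it was at 42.4, 36.2 and 49.4% in the iron-sufficient pups and 23.7, 10.6 and 19.7% in the iron-deficient pups. Of its 9 CpGs with at least 30 reads in each group, 8 were lower in the iron-deficient group. An even tile level was thus no sign of even CpGs.

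CpGs at 5% or less whose only neighbours within 50 nucleotides were at 80% or more occurred in 655 low tiles, or 0.950%, and in 1.57% of the tiles above 50%. Without them 320 of the low tiles, or 0.464%, would be above 50%, among them stable 3, which would be at 50.06%.

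The tiles with the most reads both lay on chromosome 13. At chr13:38126001-38127000, 7 CpGs between 38126364 and 38126586 held 737059 reads, and the pups were at 39.2, 39.4 and 39.9% and at 37.5, 41.1 and 41.4%. The reads fell mostly on 3 CpGs at 85.6, 3.37 and 40.3%, with nearly the same values in both diets. The tile at chr13:36740001-36741000 had 564710 reads and was less even, at 46.6, 38.9 and 27.8% and at 37.5, 34.8 and 30.1%. Reads this deep were far above the median of 1843.

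Long runs of low tiles gave broader regions with more reads. Those of 9 and 8 tiles were the longest, and of 9 runs of 6 tiles the pair with the most CpGs was taken as runs 3 and 4. Run 1, chr19:25054001-25063000, spanned 9 tiles with 133 CpGs and was at 33.8, 42.9 and 28.7% in the iron-sufficient pups and 33.6, 36.7 and 35.4% in the iron-deficient pups. The means of 35.2% ± 7.20 and 35.3% ± 1.55 (SD, n = 3) lay within the spread of the pups (exact permutation test, two-sided, p = 1). Its tiles varied more than the whole, as the first was at 5.58% in one iron-sufficient pup and 63.3% in one iron-deficient pup.

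Run 2, chr15:51024001-51032000, with 8 tiles and 124 CpGs, was at 29.6, 28.2 and 27.3% and at 30.2, 33.0 and 29.98%. The pups were close, with every iron-deficient pup slightly higher (28.4% ± 1.15 and 31.1% ± 1.68, SD, n = 3; exact permutation test p = 0.1). Run 3, chr2:77331001-77337000, with 6 tiles, was at 27.7, 22.7 and 23.6% and at 31.1, 26.9 and 31.6%, and the groups overlapped (exact permutation test p = 0.2).

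Run 4, chr19:10455001-10461000, with 6 tiles and 92 CpGs, was at 30.9, 38.3 and 27.3% in the iron-sufficient pups and 21.8, 20.2 and 17.6% in the iron-deficient pups. All iron-deficient pups were lower, and the mean fell by 12.3 percentage points (32.2% ± 5.61 and 19.9% ± 2.12, SD, n = 3; exact permutation test p = 0.1). Its last tile, chr19:10460001-10461000, differed most, at 45.1, 78.1 and 56.2% and at 28.5, 12.6 and 36.2%. The tile before it was also apart between diets, and the other 4 tiles overlapped. The unadjusted edgeR p was 0.0168 in the last tile and between 0.103 and 0.901 in the others. Runs were measured by summed reads only, and counting CpGs equally was not tried on them.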

How the data were processed

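Genomic DNA of 3 iron-sufficient and 3 iron-deficient hippocampi was sheared, ligated with methylated adaptors, bisulfite-converted and sequenced, with single or paired reads. The authors trimmed the reads, aligned them to rat build rn4 with BS Seeker, used read 1 where a pair overlapped, and merged both strands of each CpG. In the deposited tables a CpG has a methylated fraction and a read count, its coverage, neither normalized nor pooled over samples. Removal of duplicates and the base from which positions count are not given in the sources used here.

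The number of methylated reads was fraction times coverage, within 0.01 reads of a whole number at 100% of CpGs. Reads carry no molecular identifiers, so limits from counts cover counting error only (0 reads: 3 counts over the total). These limits take each read at each CpG as independent and are too narrow where CpGs share reads. Samples were grouped by their labels. Tiles of 1000 nucleotides were summed with Python 3.11.15 and pandas 2.3.3. Tested were all 1359223 autosomal tiles with at least 5 CpGs and 50 reads in every sample. Methylated and unmethylated counts were compared by edgeR 4.0.16 (quasi-likelihood, sample effects, common dispersion estimated on 50000 tiles, R 4.3.3) with Benjamini-Hochberg adjustment, and by limma 3.58.1 on log2((methylated + 1)/(unmethylated + 1)) as an alternative. The fits were tested on simulated data, where large planted changes, mostly bigger than the differences named, were mostly called and moderate ones mostly missed. The simulated tiles were drawn from all tested tiles rather than from low tiles, and were far fewer. The simulation therefore does not show which changes in low tiles could be called. Exact permutation tests were two-sided over samples.

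Named regions were the 4 largest increases and decreases among tiles with separated groups, the 4 smallest ranges, the 4 deepest dips, the 2 tiles with most reads, the 4 longest runs (ties by more CpGs) and those nearest the bounds. The regions, rule and lists were chosen with earlier results of these data known. Alternatives varied coverage, bounds, tile position, weighting, model, block and replicates. Genes and sequences were not analysed here, since no genome or annotation of rn4 was used.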

Additional observations from a re-analysis of the deposited data

How the results depend on the processing

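The count of tiles past the adjusted threshold was 0 under every alternative in which it was computed, with edgeR and with limma. Bounds of 20 to 40% took 30640 tiles, of which 568 (1.85%, all tested tiles 2.78%) had an unadjusted edgeR p under 0.05 and 3139 (10.2%, all tested tiles 9.95%) had separated groups. Restricting the sums to CpGs covered by 10 or more reads in every sample left 34153 tiles, with 555 (1.63%, all tested tiles 2.69%) and 3410 (9.98%, all tested tiles 9.75%). Both settings have fewer tiles by construction. With 1 replicate left out, separated groups numbered 13270 to 14862, since 2 pups of a group separate more easily, beside 18.9 to 21.4% of all tested tiles. The unadjusted count ran from 870 to 1488, or 1.26 to 2.16% beside 2.34 to 3.72% of all tested tiles, and the mean difference from -0.627 to 1.28 percentage points, negative without iron-deficient replicate 3.

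Whether replicate numbers pair the samples remained unknown. Deviations of same-numbered pups correlated by 0.00284, 0.000584 and 0.00451 over tiles, and those of differently numbered pups by -0.00368 to 0.000544. The same-numbered values were the highest, but all were very small. They cannot decide the question, since a shared litter or preparation was not tested. With the replicate block the unadjusted count was 873 (1.27%, all tested tiles 2.55%), the adjusted count 0 and the mean difference 0.518 percentage points.

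Other read minimums, shifted tiles, a mean over 6 samples, a wider distance to CpG-dense tiles and the exclusion of very deep tiles gave between 52038 and 80847 tiles and kept the mean difference between 0.448 and 1.05 percentage points. Equal weight for each CpG and the exclusion of lone low CpGs were chosen after seeing the data. They gave a mean difference of 0.765, 5017 separated tiles (9.89%, all tested tiles 9.67%) and 68602 tiles. Named increases and decreases kept their sign in 58 of 59 values, with decrease 3 the exception, at 2.26 percentage points with equal weights. Most of these values leave out a pup, which cannot change the sign in tiles picked for separated groups. Only values with equal weights or with CpGs covered by 10 or more reads could have changed it. With the latter, decrease 3 was at -7.67, decrease 1 at -24.4, dip 4 at -8.36 and dip 2 at -14.7.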
